A study of Caenorhabditis elegans with 12 samples.

Results

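The C-type lectin genes of Caenorhabditis elegans were taken as every gene whose symbol begins with clec- in the deposited table, and 265 of the 30301 genes of the table were found this way. RNA came from whole worms of 2 genotypes, wild type and dlk-1 mutant. DLK-1 is the first kinase of a cascade that ends in a p38 MAP kinase. Worms of each genotype stayed for 9 h on plates with 0 or 1 mM fluvastatin, a statin that inhibits HMG-CoA reductase, starting at the fourth larval stage, and each of the 4 groups holds 3 libraries. All groups grew on OP-50 bacteria from the first larval stage, and each group was pooled from several plates. The sources used here name no mutant allele, and the design text names these worms only as lacking the p38 pathway. Nothing in the labels says that replicates came from separate cultures, so a p-value here reflects only the spread among these libraries. That spread followed the replicate number in sperm genes and cuticle collagens, as given below, and its source was not tested.

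C-type lectin domains are protein folds that in many animals bind sugars, often with the help of calcium. In C. elegans the family is large, many members are predicted to be secreted, and many are made in the intestine, where different members are induced or lowered by different bacteria. Some are targets of the PMK-1 p38 kinase, a pathway of innate immunity that is distinct from the DLK-1 cascade, and others are expressed outside the intestine. In whole-animal RNA, fewer cells that express a gene and less RNA per cell cannot be told apart.

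The libraries held 9370975 to 12438131 reads when 1 transcript model was counted per gene, and 165 to 199 lectin genes had reads in any one library. Values are normalised reads, which are read counts divided by 1 size factor per library. A gene was tested when it reached a value of 10 in at least 3 libraries, which held for 128 of the 265 lectins and for 15529 genes in all. dlk-1 itself was at 961, 791 and 911 normalised reads in wild-type controls and at 481, 541 and 506 in mutant controls, and at 1419, 983 and 1345 against 792, 706 and 804 with fluvastatin. The mutant libraries lay below the wild-type libraries at both doses, and dlk-1 reads were present in all of them. dlk-1 overlaps mec-19, and the library kit does not mark strand, so reads of that pair cannot be told apart. Replicates of the same number resembled each other across the 4 groups (correlations of deviations from group means 0.555 to 0.887), so a limma fit that holds the replicate number as a block was run too. The log2 difference of dlk-1 between mutant and wild type was -0.80 among controls and -0.69 with fluvastatin, which passed the threshold with the block (adjusted p = 0.011 and 0.0218, limma) and not without it. Calls described here are those of limma without the block unless the block, edgeR or DESeq2 is named.

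Of the 265 lectins, 264 could be placed in the WBcel235 annotation by sequence name. Chromosome V held 96 of them (36.4% of the lectins against 24.5% of all genes), chromosome IV 58, chromosome II 51, chromosome I 38 and chromosome III 18. The X chromosome held 3 (1.14% against 18.7% of all genes), and all 3 were tested. The annotation marked 25 lectins as pseudogenes, of which 5 were tested. The 137 lectins below the test's filter included 22 with no read in any library and 58 with 1 to 10 reads over all 12 libraries. The other 57 had more than 10 reads in all, and the highest mean among untested lectins was 7.38 normalised reads. At the other end, 9 lectins had a mean of at least 1000 normalised reads and 39 a mean of 100 to 1000.

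Per kilobase of transcript, clec-209 had the highest level of the family, at 8649 normalised reads per kb averaged over all 12 libraries, followed by clec-63 at 3553, clec-87 at 2858, clec-88 at 2216 and clec-223 at 1457. Unlike clec-209, the other 4 stayed near their control levels. clec-63 (F35C5.6, chromosome II) was at 4312, 3775 and 4827 normalised reads in wild-type controls and 5068, 4169 and 5109.9 with fluvastatin. In limma its log2 difference was 0.15 in wild type and 0.08 in the mutant. clec-87, clec-88 and clec-223 had differences between -0.002 and 0.07 in both genotypes, and none of these 4 passed the threshold. Exons of clec-87 overlap iars-2, and exons of clec-88 overlap ctsa-4.1, so their levels may include reads of those genes.

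In wild type, fluvastatin was followed by rises in 4 tested lectins and falls in 10 at an adjusted p of 0.05 in limma, with adjustment over all genes tested. Across all 15529 genes, 1.39% were called higher and 0.425% lower in this comparison. With the replicate number as a block, 13 lectins rose and 24 fell, against a background of 3.77% higher and 3.25% lower. On the recovered reads edgeR called 4 higher and 10 lower (1.36% and 0.38% of all genes), and DESeq2 called 9 and 15 (1.97% and 0.86%). The median log2 difference over the 128 tested lectins was -0.11, beside 0.006 over all genes. That median was 0.06 without replicate 3 of wild-type controls, and -0.39, -0.27 and -0.33 without control replicate 2, control replicate 1 and treated replicate 3. It was -0.21 in edgeR and -0.18 in DESeq2. In the mutant 3 lectins rose and 5 fell, against 1.13% and 0.251% of all genes. With the block the mutant counts were 11 and 22, against 3.22% and 3.09%. edgeR called 3 and 6 in the mutant (1.09% and 0.213% of all genes), and DESeq2 called 7 and 9 (1.69% and 0.653%). The median over lectins was -0.006 in the mutant, beside 0.007 over all genes, and between -0.23 without control replicate 2 and 0.07 without control replicate 3, so neither median has a stable sign. All 8 lectins called in the mutant by limma without the block were also called in wild type with the same sign.

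**Figure D1:**
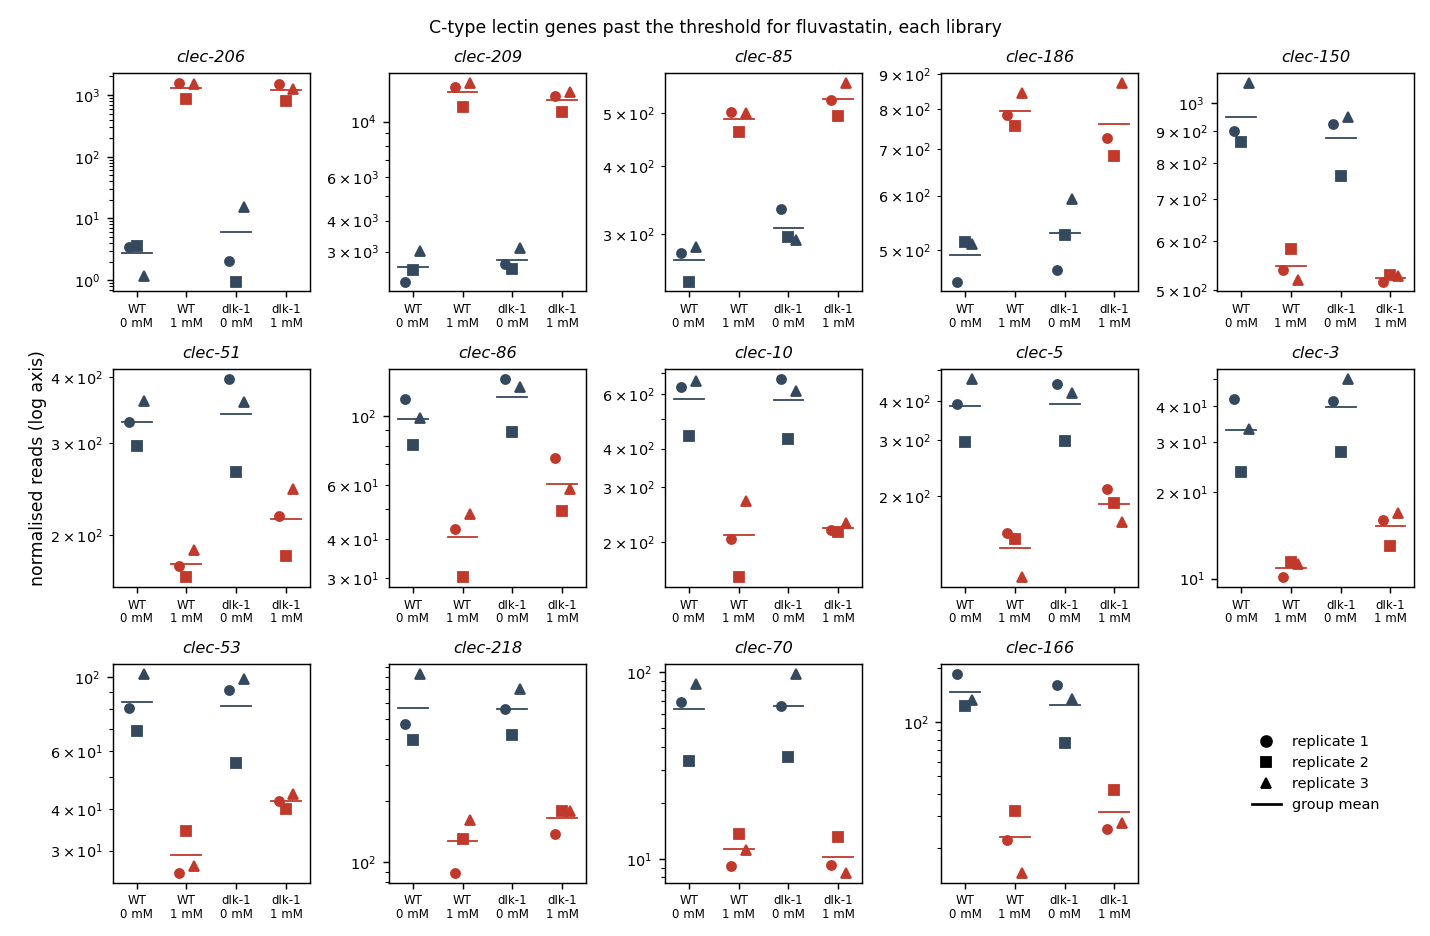
Normalised reads (log axis) of the 14 lectins called in wild type by limma without the block, in each of the 12 libraries. Colours part 0 mM from 1 mM fluvastatin, marker shapes give the replicate number, and lines are group means (n = 3). In all 14 panels the control and fluvastatin libraries of wild type do not overlap. The genes were picked by a test on these same libraries, which favours such separation. Lectins not called there, such as clec-8 and clec-26, were also apart in wild type. clec-206 goes from at most 15.1 in any control library to at least 793 in any fluvastatin library.

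Among the rises, clec-206 (F59A7.1, chromosome V, 2000418 to 2004329, minus strand, WBcel235) changed most. It was close to absent without fluvastatin, at 3.48, 3.62 and 1.19 normalised reads in wild-type controls and 2.03, 0.952 and 15.1 in mutant controls. These levels rest on 9 reads in all 3 wild-type control libraries and 16 in all 3 mutant ones. With fluvastatin it reached 1555, 856 and 1489 normalised reads in wild type and, in mutant libraries, 1528, 793 and 1273. Every treated library lay above every control library. The log2 difference was 8.46 ± 0.68 (SE, n = 3 against 3; adjusted p = 7.24e-05, limma) in wild type and 7.98 ± 0.68 (adjusted p = 1.17e-04, limma) in the mutant. Its size depends on the constant added before the logarithm, and a constant of 5 in place of 1 gave 7.36 in wild type and 6.94 in the mutant.

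clec-209 (Y19D10A.9, chromosome V, 2351676 to 2352932, plus strand, WBcel235) was already abundant in controls. Wild-type control libraries held 2273, 2521 and 3008 normalised reads and treated ones 13798, 11456 and 14289. Mutant control libraries held 2674, 2560.5 and 3098 and treated ones 12677, 10904 and 13214. The treated libraries lay above the controls in every case, at 507% of the control mean in wild type and 442% in the mutant. The log2 differences were 2.34 ± 0.13 (adjusted p = 6.16e-06, limma) and 2.14 ± 0.13 (adjusted p = 1.14e-05, limma). The annotation gives the name clec-209 to a further gene as well, F56A4.2 (chromosome V, 2459637 to 2460893, plus strand), which the deposited table lists without a lectin symbol. Values of the 2 genes differed by at most 3.13% in any library, so reads may be shared between them and the level of each is uncertain.

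These 2 genes changed the family's share of the library. All lectins together took 0.331 to 0.371% of reads in wild-type controls and 0.411 to 0.481% with fluvastatin, and 0.304 to 0.368% and 0.39 to 0.467% in the mutant. Without clec-206 and clec-209 the ranges were 0.308 to 0.344% and 0.298 to 0.34% in wild type, and 0.281 to 0.343% and 0.285 to 0.331% in the mutant. The treated and control ranges were apart with the 2 genes and overlapped without them. clec-209 alone made up 6.22 to 7.28% of lectin reads in wild-type controls and 25.6 to 27.4% with fluvastatin. The mutant ranges were 7.02 to 7.53% and 25 to 26.2%.

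clec-85 is known as a target of the PMK-1 pathway that is induced by infection. Wild-type controls held 277, 246 and 285 normalised reads and treated libraries 503, 461 and 499, while the mutant went from 334, 296 and 293 to 529, 493 and 567. It rose in both genotypes, by 0.86 ± 0.10 log2 units in wild type (adjusted p = 0.00118, limma) and 0.78 ± 0.10 in the mutant (adjusted p = 0.00282, limma), with no overlap of groups. Its exons overlap Y54G2A.40 on the same strand. clec-186 rose in wild type, from 451, 514 and 510.3 to 786, 756 and 844 normalised reads (0.69 ± 0.12, adjusted p = 0.0135, limma). That call was lost without replicate 1 of wild-type controls or without replicate 1 or 3 of treated wild type, with adjusted p up to 0.0786 in limma. In the mutant clec-186 went from 469, 527 and 594 to 728, 685 and 873 (0.52 ± 0.12), with an adjusted p of 0.0877 in limma and 5.04e-04 with the block.

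In limma a further 10 lectins rose with the replicate number as a block and not without it. DESeq2, which had no block, called clec-41, clec-56, clec-57 and clec-67 of these in wild type and clec-56 and clec-173 in the mutant. clec-67, like clec-85 a PMK-1 target induced by infection, is the clearest case. It was at 59.1, 34.4 and 86.6 normalised reads in wild-type controls and 226, 127 and 389 with fluvastatin, and at 92.5, 37.1 and 128 and then 273, 108 and 387 in the mutant. Replicate 2 was the lowest library in every group, and each treated library lay above the control of its own number. The log2 differences were 1.98 and 1.55, with standard errors of 0.61 without the block and 0.13 with it. In limma the adjusted p was 0.266 and 0.664 without the block, and 2.96e-07 and 3.95e-06 with it. clec-72 (1.12 in wild type and 1.65 in the mutant) and clec-57 (1.01 and 0.94) also rose in both genotypes with the block. Their adjusted p-values in limma with the block were 0.0201 and 0.00202 for clec-72, and 1.36e-04 and 3.6e-04 for clec-57. clec-2 rose in the mutant under the block (2.05, adjusted p = 0.00685, limma), at low levels of 1.9 to 2.33 normalised reads in mutant controls and 7.45 to 15.8 with fluvastatin. In wild type its difference was 1.32 (adjusted p = 0.0809, limma with the block).

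Smaller rises with the block were seen in clec-56 (0.62 in wild type and 0.60 in the mutant), clec-173 (0.53 and 0.68) and clec-227 (0.72 and 0.68). clec-187, clec-41 and clec-265 rose in wild type with the block, by 0.60, 0.42 and 0.39 log2 units. clec-41 encodes a protein reported to act against Bacillus thuringiensis infection. It was the most abundant of the 10, at 2221, 2192 and 2339 normalised reads in wild-type controls and 2899, 2668 and 3503 with fluvastatin. In the mutant clec-41 went from 2398, 2335 and 2654 to 2822, 2369 and 2942, a difference of 0.13 (adjusted p = 0.275, limma with the block). Treated and control libraries of clec-41 overlapped in the mutant and were apart in wild type.

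**Figure D2:**
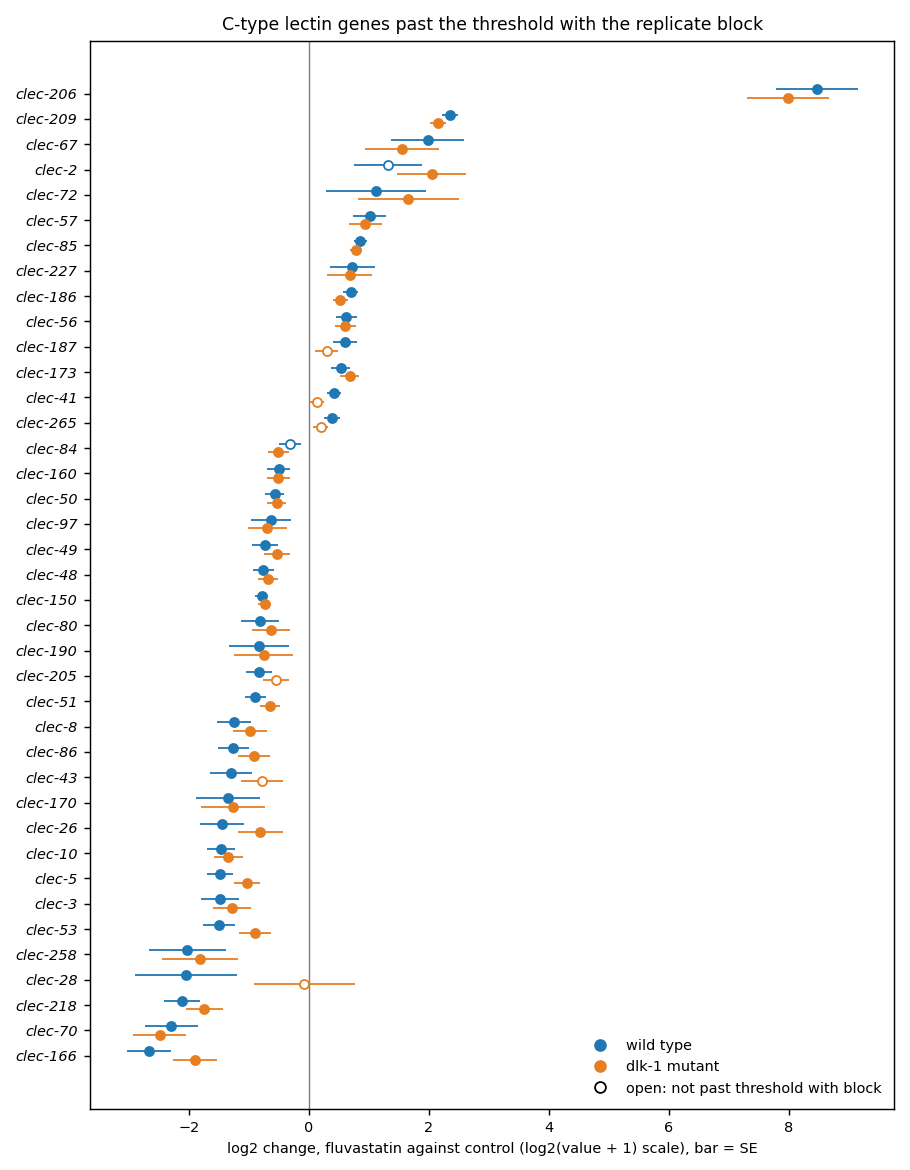
Log2 difference between fluvastatin and control, on the log2(value + 1) scale, for the 39 lectins called in at least 1 genotype with the replicate block. Bars are standard errors of the fit without the block, blue is wild type, orange is the dlk-1 mutant, and open symbols did not pass the threshold with the block. There are 14 genes right of 0 and 25 left of it, and clec-206 stands farthest right at 8.46 in wild type.

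Of the falls, clec-166 (F38A1.5, chromosome IV) was the largest in wild type. Control libraries held 184, 123 and 133 normalised reads and treated ones 22.1, 32.3 and 14.6, which is 15.7% of the control mean. In the mutant they held 162, 76.2 and 134 and then 25.3, 41.9 and 27.5. The log2 differences were -2.67 ± 0.37 (adjusted p = 0.00284, limma) and -1.91 ± 0.37 (adjusted p = 0.0316, limma). clec-70 (Y46C8AL.3, chromosome IV) fell from 69.6, 33.5 and 86.6 to 9.2, 13.5 and 11.2 in wild type and from 66.1, 35.2 and 97.7 to 9.29, 13 and 8.45 in the mutant. Its log2 differences were -2.29 ± 0.44 and -2.49 ± 0.44, with adjusted p of 0.0248 and 0.0193 in limma.

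clec-218 (W02D7.2, chromosome V) was higher in controls than these, at 475, 396 and 826 normalised reads, and fell to 89.3, 130.1 and 162 in wild type (-2.11 ± 0.31, adjusted p = 0.00428, limma). In the mutant it fell from 560.0, 419 and 703 to 138, 178 and 177 (-1.74 ± 0.31, adjusted p = 0.0186, limma). clec-10 (C03H5.1, chromosome II) fell from 631, 439 and 662 to 204, 154 and 272 in wild type (-1.47 ± 0.24, adjusted p = 0.00831, limma). In the mutant it fell from 673, 430.4 and 615 to 218, 215 and 230.3 (-1.34 ± 0.24, adjusted p = 0.0186, limma). clec-150 (R06B10.3, chromosome III) had the smallest of these falls and the narrowest spread. It went from 900.2, 866 and 1075 to 538, 583 and 519.5 in wild type and from 924, 764 and 949 to 516, 528 and 526 in the mutant. The differences were -0.79 ± 0.11 (adjusted p = 0.00358, limma) and -0.74 ± 0.11 (adjusted p = 0.00651, limma). These 5 lectins make up all falls that limma called in the mutant without the block. edgeR called clec-5 in addition, and DESeq2 called clec-3, clec-5, clec-48 and clec-51.

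Without the block limma called the other 5 falls in wild type and not in the mutant, and all of them passed the threshold in the mutant with the block, at adjusted p of 8.17e-04 to 0.0192. clec-5 (C35D10.14) went from 391, 297 and 470.0 to 153, 147 and 111 normalised reads in wild type and from 453, 298 and 422 to 211, 191 and 166 in the mutant. Its log2 differences were -1.48 ± 0.22 (adjusted p = 0.00454, limma) and -1.03 ± 0.22 (adjusted p = 0.0518, limma). clec-53 went from 80.9, 68.7 and 102 to 25.8, 34.4 and 26.9 in wild type (-1.49), and from 91.5, 55.2 and 98.8 to 42.2, 40.1 and 44.4 in the mutant (-0.90). clec-3, clec-86 and clec-51 had wild-type differences of -1.48, -1.26 and -0.89 and mutant differences of -1.29, -0.92 and -0.65. For all 5 genes the treated and control libraries were apart in both genotypes, which picking genes by calls on these same libraries favours. Exons of clec-3 overlap C41H7.2, those of clec-86 overlap alh-10 and those of clec-51 overlap faah-1, each on the opposite strand, so reads of these pairs cannot be told apart.

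Several of these calls depended on single libraries. In limma the wild-type calls of clec-166, clec-218, clec-5, clec-10 and clec-150 held when any 1 wild-type library was left out, as did the calls of clec-206, clec-209 and clec-85 in both genotypes and of clec-150 in the mutant for the libraries compared. Leaving out a whole replicate number was harder on them. Without replicate number 1 or 3 no fall was called in either genotype, and clec-85 lost its calls (adjusted p = 0.123 and 0.145 in wild type, 0.136 and 0.337 in the mutant, limma). The mutant call of clec-206 was lost without number 1 (adjusted p = 0.0873, limma), and clec-209 kept its calls in both genotypes. When only the mutant groups were fitted, clec-85, clec-150, clec-166 and clec-70 lost their mutant calls (adjusted p = 0.0661, 0.0741, 0.15 and 0.113, limma). When only the wild-type groups were fitted, clec-10 and clec-218 lost their calls (adjusted p = 0.0776 and 0.0575, limma). So did clec-3, clec-53, clec-70 and clec-86 (adjusted p = 0.233, 0.0949, 0.105 and 0.181, limma). clec-3, clec-51 and clec-70 lost the call without any of the wild-type libraries other than control replicate 2, clec-86 lost it without any of the 6, and clec-53 lost it without replicate 1 or 3 of either wild-type group. In these limma fits the highest adjusted p-values were 0.198 for clec-3, 0.122 for clec-51, 0.135 for clec-70, 0.172 for clec-86 and 0.0901 for clec-53. The wild-type count of falls was 5 without replicate 1 or 3 of either group, 6 without treated replicate 2 and 9 without control replicate 2. In the mutant, clec-10 and clec-218 lost the call without any library other than control replicate 2, and clec-166 and clec-70 without replicate 1 or 3 of either group, with adjusted p up to 0.157 in limma. The mutant count of falls was 1 without replicate 1 or 3 of either group, 3 without treated replicate 2 and 8 without control replicate 2. Shares over all genes are not given for these fits, so a changed count may not be particular to the lectins.

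With the block, 15 more lectins fell in at least 1 genotype in limma. DESeq2, without a block, called clec-8, clec-26, clec-48, clec-50 and clec-258 of these in wild type and clec-48 in the mutant. clec-258 (M162.2, chromosome V) went from 173, 57.9 and 173 normalised reads to 40.5, 16.7 and 34.8 in wild type and from 185, 43.8 and 141 to 37.2, 15.8 and 41.2 in the mutant. Replicate 2 was the lowest library in each group, and the differences were -2.03 and -1.81, with adjusted p of 5.2e-06 and 1.86e-05 in limma with the block. clec-170 (-1.35 in wild type and -1.26 in the mutant), clec-26 (-1.45 and -0.81) and clec-8 (-1.24 and -0.98) also fell in both genotypes with the block. Their adjusted p-values in limma with the block were 1.49e-05 and 3.36e-05 for clec-170, 1.96e-04 and 0.0213 for clec-26, and 6.35e-04 and 0.0049 for clec-8. clec-43 fell in wild type with the block (-1.30, adjusted p = 0.0204, limma). Its mutant difference was -0.79, not called (adjusted p = 0.202, limma with the block). clec-28 fell in wild type with the block, from 14.8, 4.52 and 20.2 to 0.92, 1.04 and 5.61 (-2.05). In the mutant clec-28 was at 13.2, 1.9 and 6.98 and then at 6.76, 1.86 and 11.6, a difference of -0.08 (adjusted p = 0.964, limma with the block). Its reads are few, and its groups overlapped in both genotypes.

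The remaining 9 of these 15 falls were between -0.31 and -0.84 log2 units in both genotypes. They were clec-48, clec-49, clec-50, clec-80, clec-84, clec-97, clec-160, clec-190 and clec-205. clec-49 has been described as needed for defence against Serratia marcescens, and went from 373, 384 and 506 normalised reads to 246, 242 and 264 in wild type. In the mutant it went from 405, 269 and 486 to 252, 225 and 311. The differences were -0.74 and -0.53, with adjusted p of 0.00119 and 0.0155 in limma with the block. Its neighbour clec-50 went from 1266, 1148 and 1483 to 921, 789 and 909 in wild type (-0.57). clec-97 overlaps clec-98 on the opposite strand, so their reads cannot be told apart.

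clec-174 (Y46C8AL.2, chromosome IV), chosen after its values were seen, differed between doses by more than any other tested lectin but clec-206, without passing the limma test. Wild-type controls held 18.3, 0 and 32 normalised reads and treated libraries 633, 162 and 696. Mutant controls held 0, 19 and 18.6 and treated libraries 594, 260.0 and 358. Treated and control libraries did not overlap in either genotype, and the differences were 5.60 ± 1.42 and 5.71 ± 1.42. Adjusted p-values were 0.111 and 0.12 in limma, 0.12 and 0.117 with the block, 0.0728 and 0.0906 in edgeR, and 0.0166 and 0.0157 in DESeq2.

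The question the mutant addresses is whether the response to fluvastatin needs the p38 pathway. For the lectins, no difference in the fluvastatin effect between genotypes was called. In limma without the block 0 of the 128 tested lectins were called, against 0% of all genes. At an unadjusted p under 0.05 there were 0, beside only 0.0837% of all genes higher and 0.103% lower. With shares this low, a count of 0 among 128 lectins says little about them. With the block 0 were called, against 0% of all genes, and 6 had an unadjusted p under 0.05. Of these 4 (3.12%) were higher and 2 (1.56%) lower, beside 1.42% and 1.07% of all genes. edgeR and DESeq2 also called 0. The lowest block value was that of clec-41, whose mutant effect was lower by 0.28 ± 0.09 log2 units (unadjusted p = 0.00564, adjusted p = 1.00, limma with the block). The mutant effect on clec-206 was lower by 0.48 log2 units with a standard error of 0.97, and that on clec-209 lower by 0.20 with a standard error of 0.19.

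Across the 128 tested lectins, the effects in wild type and in the mutant had a Pearson correlation of 0.94. It is given as a description, since the genes share their libraries and their replicate numbers. The value leans on clec-206 and clec-174, whose effects were the largest, and it was not computed without them. Of the 39 lectins called with the block in at least 1 genotype, 10 rose and 21 fell in both genotypes, and 0 were called with opposite signs. In 32 of the 39 the mutant effect was smaller in size than that in wild type, which held for 21 of 25 falls and 11 of 14 rises. The 39 were picked by calls on these same effects, and this lean was not tested. The median size of the difference over all tested lectins was 0.192 log2 units. No difference between genotypes was called.

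**Figure D3:**
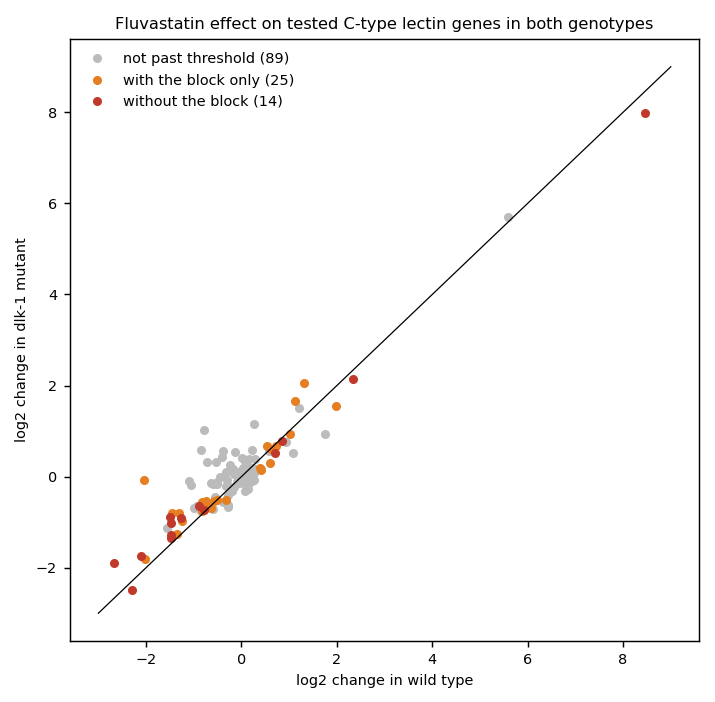
Log2 difference between fluvastatin and control in the dlk-1 mutant (vertical axis) against that in wild type (horizontal axis) for the 128 tested lectins, with a line of equal effects. Red points were called in limma without the block (14), orange points in limma with the block and not without it (25), and grey points in neither fit (89). The points follow the line from clec-166 at -2.67 to clec-206 at 8.46, and clec-28 is the orange point off the line, at -2.05 in wild type and -0.08 in the mutant.

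Mutant and wild type were also compared at each dose. Among controls 0 lectins were called in limma, against 0% of all genes. At an unadjusted p under 0.05 there were 0, beside 0.303% of all genes higher and 0.502% lower. With fluvastatin 0 were called, against 0% of all genes. At an unadjusted p under 0.05 there was 1, beside 0.348% of all genes higher and 1.11% lower. edgeR also called 0 lectins at either dose, against 0% of all genes. The block called 0 lectins, against 0.0515% of genes higher and 0.0451% lower among controls, and 0.0966% and 0.174% with fluvastatin. DESeq2 called 0, against 0.0194% and 0.00647% among controls and 0.0129% and 0.0323% with fluvastatin. The gene at an unadjusted p under 0.05 in limma was clec-7, at 69, 66.6 and 105 normalised reads in treated wild type and 55.7, 29.8 and 40.1 in the treated mutant (-0.94, unadjusted p = 0.0082, adjusted p = 1.00 in limma and 0.104 with the block). Its treated libraries were lower in the mutant without overlap, which picking the gene by its p in that comparison favours. Its levels in controls were 91.3, 102 and 92.6 in wild type, against 55.9, 56.2 and 86 in mutant libraries, again without overlap. Among controls its log2 difference was -0.55 (unadjusted p = 0.0829, limma).

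With the block, 5 lectins were higher and 19 lower in mutant controls at an unadjusted p under 0.05, with 0 called. Among all genes 3.58% were higher and 3.83% lower at that p. With fluvastatin 8 lectins were higher and 10 lower, beside 3.52% and 4.42% of all genes. The neighbours clec-207 and clec-208 were among those with the lowest p. clec-207 was at 7.83, 25.3 and 87.8 normalised reads in wild-type controls and 2.03, 8.57 and 60.5 in mutant controls (-1.18, adjusted p = 0.365, limma with the block). clec-208 was at 20, 26.2 and 74.8 and then at 6.1, 10.5 and 55.8 (-1.08, adjusted p = 0.336, limma with the block). Both genes were lower in the mutant within each replicate number, and the spread across numbers was larger than the difference between genotypes.

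Lectin genes lie next to each other in many places. In the annotation, 125 lectins formed 41 runs of 2 or more adjacent protein-coding genes, the longest with 13 members. Over all 128 tested lectins, 39 were called with the block in at least 1 genotype, and gathering of calls in runs was not tested. The 21 runs with at least 2 tested members held 58 tested lectins. Of these runs, 9 had no member called with the block in either genotype, 6 had 1 and 6 had 2 or more. In 2 of the last 6 all called members rose, which were clec-186 with clec-187 on chromosome IV and clec-57 with clec-227 and clec-56 on chromosome V. In 2 others all called members fell, which were clec-26 with clec-28 and clec-49 with clec-50, both on chromosome V.

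The remaining 2 runs held members that moved in opposite directions. On chromosome II clec-3 fell and its neighbour clec-2 rose. On chromosome IV, between 3922165 and 3941708 in WBcel235, clec-67 rose and clec-70 fell, while clec-71 was at 27, 17.2 and 40.4 normalised reads in wild-type controls and 20.2, 18.7 and 31.4 with fluvastatin (-0.21, not called). clec-174 is the last tested gene of that run, with the differences given above. clec-54 and clec-55, which follow clec-57, clec-227 and clec-56, had wild-type differences of -0.23 and -0.38 and were not called in either fit.

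**Figure D4:**
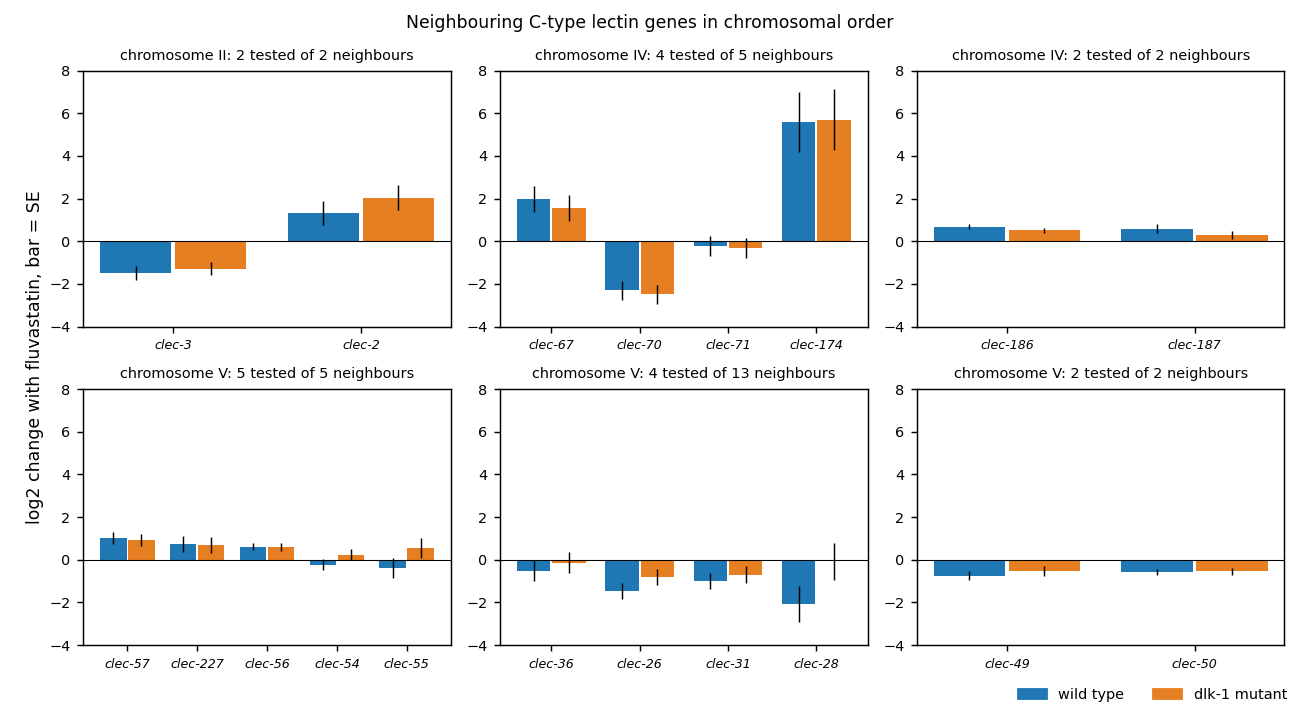
Log2 difference between fluvastatin and control, on the log2(value + 1) scale, for the tested members of the 6 runs of adjacent lectins with at least 2 calls under the block, in chromosomal order. Bars start at 0 and lines are standard errors of the fit without the block. clec-3 and clec-2, and clec-67 and clec-70, point in opposite directions, and clec-174 stands at 5.60 and 5.71 without having passed the limma test.

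Some lectins with a role known from earlier work showed no call. clec-60, which is induced by several infections and is listed with an overlapping pseudogene, was at 13.9, 0 and 15.4 normalised reads in wild-type controls and 12.9, 2.08 and 5.61 with fluvastatin. clec-4 was at 94.8, 52.4 and 62.9 and then 60.7, 52.1 and 55 in wild type, with differences of -0.28 there and -0.41 in the mutant. clec-65 was at 1076, 898 and 939.9 and then at 1242, 1059.8 and 967 (0.16 in wild type and 0.21 in the mutant). clec-66, clec-52 and clec-71 were not called in either fit. clec-38, reported in axon guidance, had 5 reads over all libraries, and clec-39, reported in defence against Serratia marcescens, had 3. clec-42, which like clec-41 has been tied to Bacillus thuringiensis, had 31, clec-17 had 23 and clec-61 had 35, and these 5 genes were below the filter and were not tested in this fit.

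Many lectins varied with the replicate number. In replicate 1, 16 of 128 tested lectins (12.5%) lay at least 1 log2 unit below their group mean, averaged over the 4 groups, beside 1.39% of all genes tested. In replicate 3, 14 (10.9%) lay at least 1 unit above it, beside 0.605% of all genes. In replicate 2, 20 (15.6%) lay at least 1 unit below it, beside 11.7% of all genes. clec-92, clec-94, clec-95, clec-99, clec-136, clec-137, clec-138, clec-207 and clec-208 were among those low in replicate 1 and high in replicate 3. clec-151, clec-152, clec-154 and clec-155 were high in replicate 1 and low in replicate 2.

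clec-266 and clec-196 were the 2 lectins at least 1 unit high in replicate 2. clec-266, on the X chromosome, was at 27.8, 441 and 15.4 normalised reads in wild-type controls and at 20.2, 406 and 15.7 with fluvastatin, and exons of kqt-1 overlap it on the opposite strand. In the mutant clec-266 was at 19.3, 487 and 20.9 and then at 24.5, 553 and 21.1. clec-196 was at 24.4, 133 and 5.93 in wild-type controls. clec-153, with the lowest replicate 2 of the family, was at 145, 19.9 and 92.6 in wild-type controls and 121, 21.9 and 134 with fluvastatin. clec-94 was at 0.87, 13.6 and 42.7 in wild-type controls. In these 4 genes treated and control libraries overlapped within each genotype.

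Markers of stage and tissue moved with the replicate number. The median cuticle collagen lay at 0.81, -1.06 and 0.20 log2 units from its group means in replicates 1, 2 and 3, and the median of 52 sperm genes at 0.36, -1.01 and 0.65. Medians of the lectins were 0.05, -0.19 and 0.16, and those of 14 intestinal markers 0.05, -0.01 and 0.02. With fluvastatin, 0 intestinal markers were called without the block, and asp-1, cpr-6 and pho-1 fell with it in both genotypes. The summed intestinal list was at 2809 to 4004 CPM (counts scaled to the library total) in wild-type controls, 2418 to 3086 with fluvastatin, and at 2577 to 3749 and 2525 to 3072 in the mutant. Of 124 tested collagens 1 fell in each genotype without the block, and 32 in wild type and 25 in the mutant with it. Among all genes 0.425% fell in wild type and 0.251% in the mutant without the block, and 3.25% and 3.09% with it. Of 6 vitellogenins 0 were called without the block and 4 fell with it in both genotypes. None of 52 sperm, 9 germline or 6 hypodermal genes was called in either fit. The part of these tissues and stages in the lectin results was not tested.

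**Figure D5:**
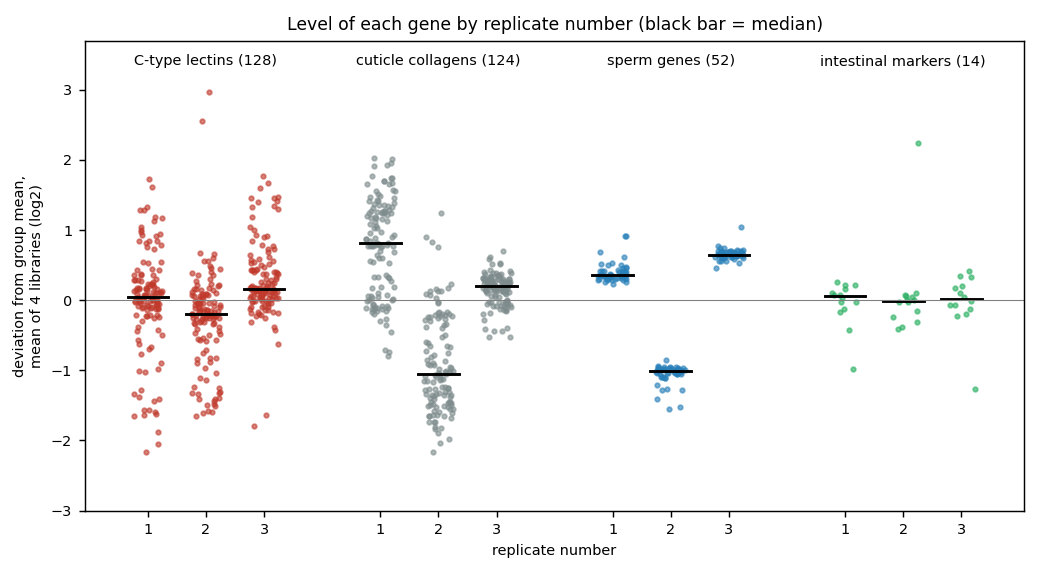
Deviation of each tested gene from its group mean (log2 units, averaged over the 4 groups) by replicate number, for 128 lectins, 124 cuticle collagens, 52 sperm genes and 14 intestinal markers. Each point is a gene and each black bar a median. Collagens and sperm genes are low in replicate 2, with medians of -1.06 and -1.01. Of the lectins, 16 lie at least 1 unit low and 10 at least 1 unit high in replicate 1. The low and high counts are 20 and 2 in replicate 2, and 2 and 14 in replicate 3.

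Other genes of carbohydrate binding and immunity were described beside the lectins. Galectins form the other large family of sugar-binding proteins, and of 11 tested 0 were called without the block in either genotype. Among all genes 1.39% rose in wild type and 1.13% in the mutant without the block, and 3.77% and 3.22% with it. lec-11 rose with the block in both genotypes (0.65 in wild type and 0.48 in the mutant; adjusted p = 0.00291 and 0.0276, limma with the block). Among 35 immune regulators vhp-1, a phosphatase that acts on p38 and JNK kinases, was the 1 gene called without the block. It rose by 0.48 ± 0.10 in wild type (adjusted p = 0.0401, limma) and 0.51 ± 0.10 in the mutant (adjusted p = 0.036, limma). nhr-86 and pqm-1 rose with the block in both genotypes, and zip-2 in wild type. pmk-1, the p38 kinase of the immune pathway, had differences of 0.07 and -0.03, and its upstream adaptor tir-1 had 0.50 and 0.49, neither called.

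Of 30 tested genes for other secreted immune effectors, 2 rose and 6 fell in wild type, and 0 rose and 4 fell in the mutant, without the block. Under the block the wild-type rises numbered 5 and the falls 13, and the mutant rises 3 and the falls 13. cnc-4 and irg-2 rose with the block in both genotypes, by 1.62 and 1.64 in wild type, and nlp-31 rose in wild type. dod-24, irg-3, lys-5, lys-6, lys-8 and spp-3 fell with the block in both genotypes, fmo-2 in wild type and lys-7 in the mutant. Over all 30 tested effectors the median log2 difference was -0.18 in wild type and -0.31 in the mutant. The lysozyme gene lys-2 rose by 0.95 ± 0.13 in wild type (adjusted p = 0.00278, limma). nlp-29, which encodes an epidermal antimicrobial peptide, rose by 0.72 ± 0.15 there (adjusted p = 0.0372, limma). The thaumatin-like gene thn-2 fell by 2.85 in wild type and 2.16 in the mutant, and thn-1 by 2.46 and 1.99. ilys-5 and lys-4, both of lysozyme families, fell in both genotypes, by 1.12 and 1.48 in wild type. spp-1 and spp-5, of the saposin-like family, fell in wild type by 0.92 and 0.63.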

How the data were processed

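RNA of whole worms was sequenced as 50 bp single reads from TruSeq RNA libraries, per the labels' protocols. The submitters' processing notes list Bowtie and DESeq2 and give neither version nor role. The sources used here do not give the genome build or the annotation. The deposited signal is a normalised read count, that is, reads divided by the authors by 1 size factor per library. All values gave whole reads (100% within 0.01 read), and edgeR 4.0.16 and DESeq2 1.42.0 were run on these as alternatives. The transcript model with the highest mean was kept for each of 30301 genes, and 11 lectins had several models.

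Values were analysed as log2(value + 1) in R 4.3.3 by limma 3.58.1 with its trend and robust options, all 4 groups in 1 fit, two-sided, with Benjamini-Hochberg adjustment over the 15529 genes that reached a value of 10 in 3 or more libraries. Differences of low genes on this scale depend on the added constant and can lie above or below those of other methods. For clec-206 the mutant value of 7.98 lay above edgeR (7.69) and DESeq2 (7.71). The wild-type value of 8.46 lay below edgeR (8.75) and DESeq2 (8.83). Replicate numbers come from the titles. Deviations from group means correlated in every same-number pair (0.555 to 0.887), so they were taken as pairing, from these correlations and not from a label. Genes named are those called in any comparison, block calls of at least 1 log2 unit, the 5 highest levels per kilobase and members with a known role. Genes added for neighbourhood or replicate pattern were chosen after their values were seen. The members and lists were chosen with earlier results of these data known. Of the list entries, 35 of 39 regulators and 41 of 46 effectors were found in the table. The scripts were tested on simulated data. Coordinates and exon overlaps come from WBcel235 (Ensembl) by sequence name. Protein and promoter sequences were not analysed here.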

Additional observations from a re-analysis of the deposited data

How the results depend on the processing

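With the replicate block the lectin counts in wild type were 13 higher and 24 lower, and in the mutant 11 and 22. With the block and without replicate number 2, an alternative chosen after seeing the data, they were 11, 21, 10 and 19. A fit of only the compared groups gave 4 lower in wild type and 2 lower in the mutant. DESeq2 gave 9 higher in wild type, and 7 higher and 9 lower in the mutant. edgeR, a pseudocount of 5, no filter and equal library totals kept each count within 1.5 times. Leaving out libraries or replicate numbers gave 2 to 5 higher and 0 to 12 lower in wild type, and 1 to 4 and 0 to 8 in the mutant. The counts of 0 falls came without replicate 1 or without replicate 3 of all groups, which leaves 2 libraries a group that include replicate 2. No filter added clec-248 and clec-249 in wild type, with 1 read in each treated library. Shares over all genes are given above only for limma with and without the block, edgeR and DESeq2. For the other fits they are not given, so a changed count may not be particular to the lectins.

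Signs turned only in differences that were not called without the block. clec-60 in wild type was -0.17 with a pseudocount of 5, -0.49 in edgeR, -0.48 in DESeq2 and -0.71 with the block and no replicate number 2. clec-87 in wild type was 0.0024 in DESeq2 and 0.0021 with the block and no replicate number 2, and clec-88 in the mutant was -0.0067 under the latter. With libraries left out, wild-type differences ranged from -1.25 to 0.77 for clec-60, -0.51 to 0.082 for clec-71, -0.12 to 0.087 for clec-87, -0.063 to 0.15 for clec-88 and -0.029 to 0.19 for clec-223. Mutant differences ranged from -0.70 to 0.52 for clec-28, -0.66 to 0.14 for clec-52, -0.063 to 0.21 for clec-63, -0.11 to 0.27 for clec-66, -0.74 to 0.17 for clec-71, -0.082 to 0.16 for clec-87, -0.095 to 0.12 for clec-88 and -0.035 to 0.18 for clec-223. The cause was not tested. The mutant median over lectins became 0.007 with equal library totals and, with single libraries left out, ranged from -0.23 to 0.07. The wild-type median ranged from -0.39 to 0.06. The block changed calls as given beside each result. It could change no sign, since every group holds each replicate number and the block then leaves the differences as they are. Lectins near the filter rest on few reads, and counting error limits them.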
